A study of Mus musculus with 18 samples.

Results

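The genes described here encode the heat shock proteins and chaperonins of the mouse: the HSP90, HSP70, HSP110 and small HSP families, the J-domain proteins (Dnaja, Dnajb and Dnajc genes), the mitochondrial chaperonin, the cytosolic chaperonin CCT and the heat shock factor Hsf2. They were chosen by a rule on gene symbols that used no measured value, though earlier results of these data were known. Of 18194 genes that had a probe set assigned to a single gene, 83 matched, and 203 probe sets represented them. Each gene was read from the probe set with its highest mean over all arrays. Of the 83 genes, 76 passed a filter on dim probe sets and were tested. The other 7, Dnajb3, Dnajc5g, Dnajc6, Hspa1a, Hspa1l, Hspb3 and Hspb7, had log2 values between 1.49 and 3.32 and are not compared. Hsp90ab1 and Hsf1 were not analysed here.

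The cells were G1E-ER4, a mouse erythroid progenitor line in which the endogenous Gata1 gene is disrupted and a fusion of the erythroid transcription factor GATA1 to the estrogen receptor's ligand-binding domain has been added. Estradiol activates the fusion protein, and the cells then mature along the red cell lineage. Total RNA was hybridised to Affymetrix arrays before estradiol and after 3, 7, 14, 21 and 30 h in 20 nM estradiol, with 3 arrays at each of the 6 times and 18 arrays in all. Every group, the 0 h controls included, carries the Gata1 disruption and the same fusion. There were no untreated arrays at the later times, so the effects of estradiol, of GATA1 activity and of time in culture cannot be told apart. Arrays sharing a time are labelled as biological replicates, with nothing on whether separate cultures were used, so the p-values measure only the spread between these samples. In bulk RNA, fewer cells of a type and less RNA per cell cannot be told apart.

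Molecular chaperones bind unfolded or partly folded proteins and release them in cycles driven by ATP. J-domain proteins deliver clients to HSP70 and stimulate its ATPase, HSP110 and other exchange factors reset it, and HSP90 acts later on kinases and hormone receptors, the estrogen receptor among them. Chaperonins instead enclose a client in a chamber: HSP60 with its lid HSP10 in mitochondria, and the CCT ring, which folds actin and tubulin, in the cytosol. In human erythroblasts, HSP70 is known to protect GATA1 from caspase cleavage, which ties this protein family to red cell maturation.

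The heat shock response and the unfolded protein response of the endoplasmic reticulum (ER) act through short promoter sequences, and 5 promoters of members that hold them are shown because these genes return in the results below. RefSeq gave 88 promoter windows, from 250 bases before to 50 bases after a gene start, for 69 of the 83 genes (mouse build GRCm38.p6), among 32851 windows of all genes. The search for a heat shock element used 3 units in a row that alternate between GAA and TTC, each set apart by NN, on both strands, and 6 member windows of 4 genes (Dnajb6, Hspd1, Hspe1 and Hsph1) held it, or 6.82%, against 0.603% of all windows. Dnajb6 and Hsph1 each count through overlapping windows that hold the same element. By gene, 4 of 69 members held it, against 179 of 27025 genes in all. The ER stress element, CCAAT and CCACG set apart by 9 bases of any kind, on both strands, was found in 3 member windows (Dnajc3, Hsp90b1 and Hspa5), or 3.41%, against 0.119% of all. The GATA motif AGATAA was found in 4 member windows, or 4.55%, against 11.2% of all, and the E-box CACGTG in 9, or 10.2%, against 7.15%. A match describes the letters only and does not show binding. In the lines below, bases upstream of the start are written 5′ to 3′ on the gene's strand, with the matched element in capitals.
Hspe1, chr1:55087998-55088147, plus strand: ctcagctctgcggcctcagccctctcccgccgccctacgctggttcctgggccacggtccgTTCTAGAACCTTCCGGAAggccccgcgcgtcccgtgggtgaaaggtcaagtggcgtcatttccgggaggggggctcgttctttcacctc
Dnajb6, chr5:29735748-29735897, plus strand: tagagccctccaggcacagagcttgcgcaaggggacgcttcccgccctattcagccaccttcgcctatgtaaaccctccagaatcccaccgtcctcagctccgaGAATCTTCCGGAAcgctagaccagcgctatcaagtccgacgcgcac
Hspa5, chr2:34771940-34772089, plus strand: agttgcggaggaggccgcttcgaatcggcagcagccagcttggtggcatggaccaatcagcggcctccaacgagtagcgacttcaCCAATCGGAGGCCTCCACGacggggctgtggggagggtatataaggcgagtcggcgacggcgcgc
Hsp90b1, chr10:86705445-86705664, minus strand: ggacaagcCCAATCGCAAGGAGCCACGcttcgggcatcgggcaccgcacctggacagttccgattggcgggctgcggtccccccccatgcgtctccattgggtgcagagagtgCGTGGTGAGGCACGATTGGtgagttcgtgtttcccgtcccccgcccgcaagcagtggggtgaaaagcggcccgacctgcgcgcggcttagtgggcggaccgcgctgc
Dnajc3, chr14:118937782-118937931, plus strand: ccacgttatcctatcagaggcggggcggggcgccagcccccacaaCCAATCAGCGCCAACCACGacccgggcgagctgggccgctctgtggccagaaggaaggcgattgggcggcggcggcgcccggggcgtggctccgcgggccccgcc
In Hspe1, 2 overlapping matches form one run of capitals. The mitochondrial chaperonin genes Hspe1 and Hspd1 lie head to head, and their windows overlap by 285 bases, so the Hspd1 match is the same element read from the other strand. Hsp90b1 holds 2 separate ER stress elements, and Hspa5 and Dnajc3 hold 1 each.

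Pearson correlations between arrays of the same time ran from 0.995 to 0.998, and no pair of arrays held identical values. Array medians of the log2 values lay between 4.04 and 4.09. Of 8 erythroid markers measured, 7 were above the 40th percentile on all arrays of every time, and the summed linear level of the markers went from a range of 8639 to 9204 at 0 h to one of 23086 to 23370 at 30 h. The sum of 9 mast cell and basophil markers went from a range of 439 to 539 to one of 97.6 to 110. The sum of 6 megakaryocyte markers went from a range of 467 to 504 at 0 h to one of 373 to 414 at 30 h, and granulocyte, macrophage and lymphoid markers stayed near the low end of the scale, with sums of at most 135. The gap between 3′ and 5′ control probe sets of Gapdh, which widens as RNA is shortened, was 1.13 log2 units at 0 h, 1.19 at 14 h and 1.52 at both 21 h and 30 h. The part of these shifts in the results below was not tested.

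Against 0 h, the number of member genes that passed the test (limma, Benjamini-Hochberg adjusted p under 0.05 over 12720 genes) grew with time. At 3 h, 9 of 76 were higher and 10 lower, 11.8% and 13.2%, where 11.2% of all tested genes were higher and 14.7% lower. At 7 h, 13 were higher and 9 lower (all genes 15.3% and 16.3%), and at 14 h, 18 were higher and 16 lower (all genes 22.2% and 22.7%). At 21 h, 22 were higher and 26 lower (all genes 31.4% and 28.6%). At 30 h, 26 were higher and 32 lower, 34.2% and 42.1%, against 36.6% and 33% of all genes. The members' median log2 change at 30 h was -0.08, and that of all genes 0.09. All 5 of these comparisons use the same 0 h arrays.

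Across the 6 times, 64 of the 76 members, or 84.2%, changed by limma's F test, where 74.3% of all genes did. From 14 h to 30 h, 18 members were higher and 29 lower, against 28.4% and 28.5% of all genes. Of the 32 members lower at 30 h, 14 took their largest step between 21 h and 30 h and 7 between 14 h and 21 h. Of the 26 that were higher, 7 took it in each of those intervals, 6 between 3 h and 7 h, and 4 in the first 3 h. At least 2-fold at 30 h were 6 members higher and 8 lower, where 9.16% of all genes were at least 2-fold higher and 13.1% lower.

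**Figure D1:**
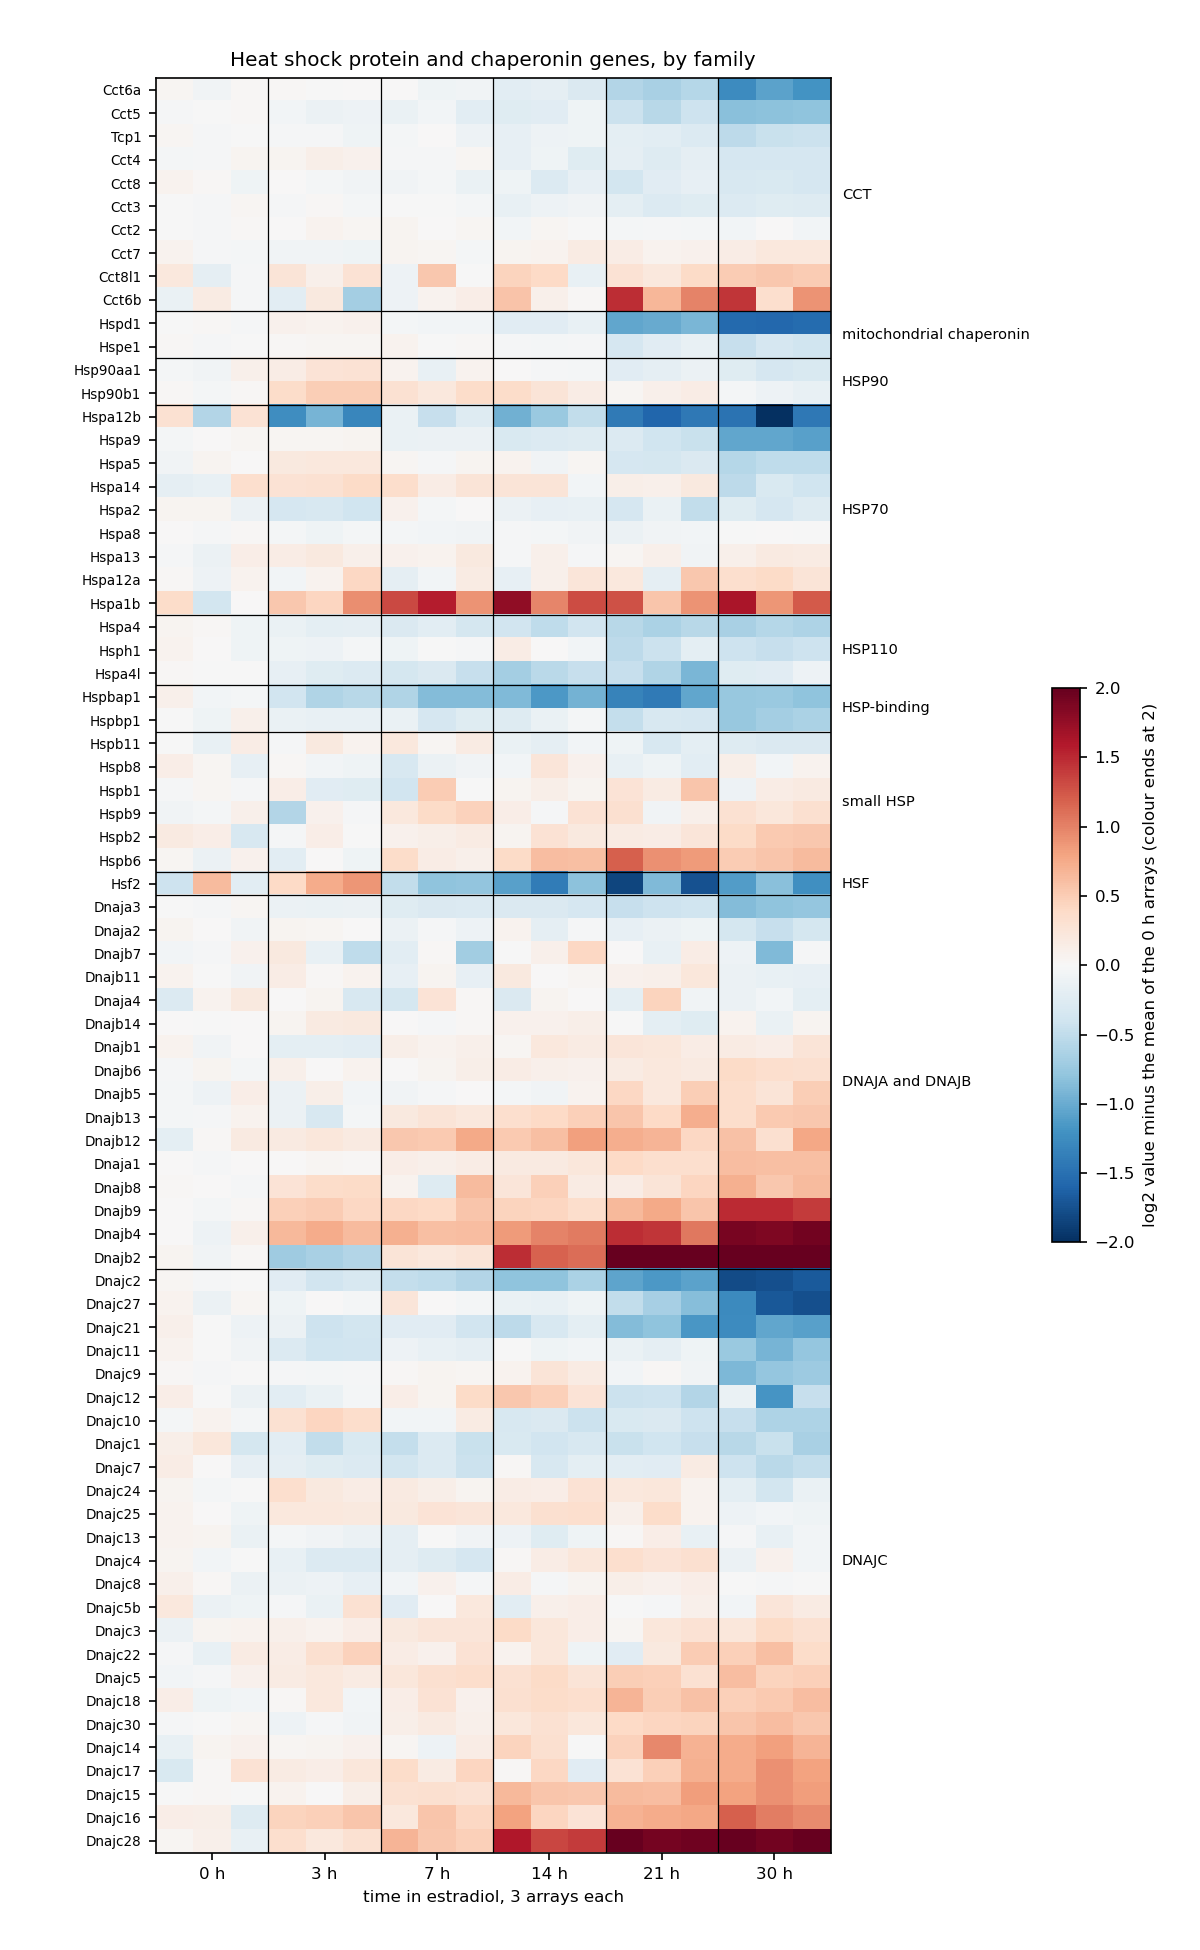
Each line is 1 of the 76 tested genes and each column 1 array, grouped by hours in estradiol. Colour gives the log2 value minus the mean of the 3 arrays at 0 h and ends at 2 in either direction. Within families, genes are ordered by their change at 30 h. The CCT, mitochondrial chaperonin and HSP110 blocks are mostly blue at 30 h, and the DNAJA and DNAJB block is mostly red.

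The subunits of the cytosolic chaperonin did not move as one. None of its 10 genes passed the test at 3 h or 7 h by limma, and 0 at 3 h and 1 at 7 h had an unadjusted p under 0.05. For comparison, the test called 11.2% of all genes up and 14.7% down at 3 h. By 7 h these shares stood at 15.3% and 16.3%. Whether the 10 CCT genes departed from such shares was not tested. The log2 changes of these 10 genes at 3 h lay between -0.23 and 0.22. At 30 h, 6 were lower and 3 higher (all genes 33% and 36.6%), with a median log2 change of -0.29. Among the 8 genes of the ring itself the changes ran from -1.17 to 0.19.

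Cct6a, the zeta subunit, fell most. Its arrays read 12.23, 12.12 and 12.21 at 0 h, 11.98, 12.00 and 11.89 at 14 h, 11.61, 11.53 and 11.62 at 21 h, and 10.93, 11.12 and 11.00 at 30 h. From 14 h on, each group lay wholly below the one before it, and the fall at 30 h was 2.25-fold (log2 change -1.17, SE 0.059, adjusted p = 3.65e-11 by limma). Cct5, the epsilon subunit, read 12.07, 12.08 and 12.12 at 0 h and 11.26, 11.27 and 11.29 at 30 h, again without overlap (log2 change -0.81, SE 0.058, adjusted p = 2.97e-09 by limma).

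The other subunits shifted less on the probe sets used. Tcp1, the alpha subunit, went from 12.52 to 12.06 on average, a log2 change of -0.46. Cct4 changed by -0.34, Cct8 by -0.32 and Cct3 by -0.26, and all of these passed the test. Cct2 (13.06 at 0 h and 13.02 at 30 h, log2 change -0.04, SE 0.045, adjusted p = 0.46 by limma) did not. Cct7, the eta subunit, was the 1 ring gene that rose: its arrays read 12.72, 12.63 and 12.62 at 0 h and 12.82, 12.87 and 12.87 at 30 h, a log2 change of 0.19 (SE 0.051, adjusted p = 0.00333 by limma).

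Beside the ring genes stand Cct6b, a zeta paralog known from the testis, and Cct8l1, a theta-like gene. Both were dim. Cct6b read 3.04, 3.33 and 3.14 at 0 h and 4.60, 3.51 and 4.06 at 30 h, and its 30 h arrays spread over more than a log2 unit (log2 change 0.89, SE 0.27, adjusted p = 0.00756 by limma). Cct8l1 had means of 2.79 and 3.31 and is counted among the 3 higher. The filter lay between 3.20 and 3.35 on the arrays, and Cct8l1 was above it on no array at 0 h and on 1 of 3 at 30 h, so this call compares values mostly under the filter.

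**Figure D2:**
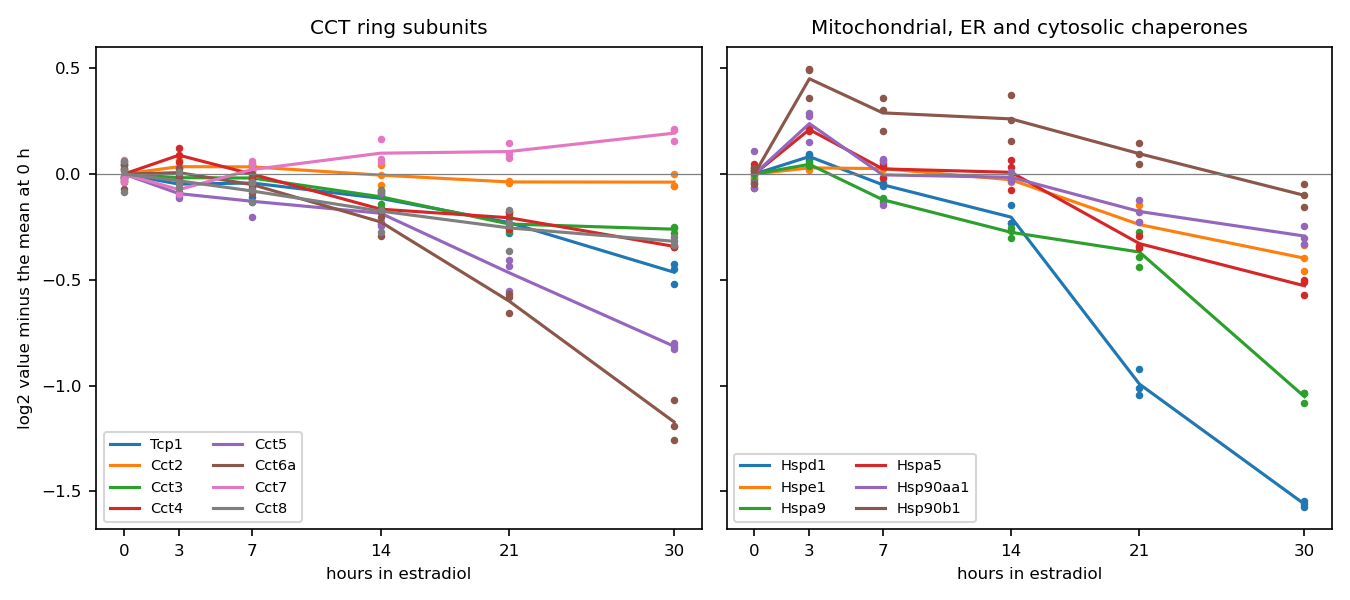
Log2 value minus the mean at 0 h against hours in estradiol, with 1 point per array and a line through the means of 3 arrays. On the left, Cct6a ends at -1.17, Cct5 at -0.81 and Cct7 at 0.19. On the right, Hspd1 ends at -1.56 and Hspa9 at -1.05, and Hsp90b1, Hsp90aa1 and Hspa5 peak at 3 h on the probe sets used.

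Both genes of the mitochondrial chaperonin fell, and Hspd1, which encodes the HSP60 barrel, fell more than any other chaperonin gene. Its arrays read 12.34, 12.36 and 12.32 at 0 h, 12.43, 12.41 and 12.43 at 3 h, and 12.30, 12.28 and 12.29 at 7 h. They then read 12.11, 12.11 and 12.19 at 14 h, 11.29, 11.33 and 11.42 at 21 h, and 10.78, 10.77 and 10.79 at 30 h. The 14 h, 21 h and 30 h groups were each apart from the earlier ones, and most of the fall came after 14 h. At 30 h the level was 2.95-fold below that at 0 h (log2 change -1.56, SE 0.047, adjusted p = 8.51e-14 by limma). Hspe1, the HSP10 lid encoded next to it, read 12.89, 12.85 and 12.86 at 0 h and 12.41, 12.53 and 12.47 at 30 h (log2 change -0.40, SE 0.054, adjusted p = 6.98e-06 by limma).

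Hspa9 encodes mortalin, the HSP70 of the mitochondrial matrix and the partner of HSP60 in folding imported proteins. It read 11.74, 11.78 and 11.81 at 0 h, 11.50, 11.39 and 11.34 at 21 h and 10.74, 10.74 and 10.69 at 30 h. The groups did not overlap, and the fall was 2.07-fold (log2 change -1.05, SE 0.049, adjusted p = 1.58e-11 by limma). Of the mitochondrial J-domain proteins, Dnaja3 (Tid1, which works with mortalin) fell from 11.55 to 10.73, a log2 change of -0.81, and Dnajc11, linked to the cristae, fell from 8.39 to 7.57, a log2 change of -0.82. Dnajc15, an inner membrane J protein, instead rose from 11.29 to 12.14, a log2 change of 0.85. Dnajc30, which binds the ATP synthase, rose by 0.57. The mitochondrial members thus moved in both directions.

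Hspa5 and Hsp90b1, both chaperones of the ER, were higher at 3 h than at 0 h on the probe sets used. Hspa5 encodes BiP, the HSP70 of the ER, and read 10.93, 11.04 and 11.01 at 0 h, 11.20, 11.21 and 11.21 at 3 h, and 10.42, 10.49 and 10.48 at 30 h. All 3 h arrays lay above, and all 30 h arrays below, those at 0 h. The log2 change was 0.21 at 3 h (SE 0.052, adjusted p = 0.00691 by limma) and -0.53 at 30 h (SE 0.052, adjusted p = 1.43e-07 by limma). Hsp90b1, the ER member of the HSP90 family, read 9.64, 9.58 and 9.65 at 0 h, 9.98, 10.12 and 10.12 at 3 h, and 9.58, 9.52 and 9.47 at 30 h. It was 0.45 log2 units higher at 3 h (SE 0.066, adjusted p = 0.000112 by limma). At 30 h its arrays lay just below those at 0 h, the nearest at 9.577 against 9.578. Its change there was -0.10 (adjusted p = 0.185 by limma), and -0.43 with its probe sets averaged (adjusted p = 0.00119 by limma). These are the genes whose promoters with ER stress elements are printed above, together with Dnajc3, which encodes a J protein of the ER lumen that also inhibits the kinase PERK. Dnajc3 went from 9.10 at 0 h to 9.20 at 3 h and 9.40 at 30 h, a log2 change of 0.10 (adjusted p = 0.399) and 0.31 (adjusted p = 0.00296 by limma). Another 2 of its 5 probe sets gave -0.13 each at 30 h, and the average over all 5 was 0.05 (adjusted p = 0.484 by limma).

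Among the cytosolic chaperones, Hspa8, the constitutive HSC70 that uncoats clathrin vesicles, stayed within a narrow range. Its arrays read 12.97, 12.94 and 12.99 at 0 h and 12.95, 12.97 and 12.95 at 30 h (log2 change -0.01, SE 0.043, adjusted p = 0.905 by limma), and with its probe sets averaged the change was -0.27 (adjusted p = 3.9e-05 by limma). Hsp90aa1, the inducible cytosolic HSP90, read 12.34, 12.32 and 12.49 at 0 h, 12.54, 12.66 and 12.68 at 3 h and 12.14, 12.06 and 12.08 at 30 h. On this probe set it was higher at 3 h by 0.24 (adjusted p = 0.0172) and lower at 30 h by a log2 change of -0.29 (adjusted p = 0.00122 by limma). The rise at 3 h was not seen on its other bright probe sets, which gave 0.001 (adjusted p = 0.997) and 0.03 (adjusted p = 0.892 by limma). Its dim sets gave 0.16 and 0.28 at 3 h and did not pass the test either.

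The stress-inducible Hspa1b gave a dim signal that rose on the probe set used. It read 4.22, 3.48 and 3.86 at 0 h, 5.16, 5.42 and 4.75 at 7 h, and 5.48, 4.73 and 5.07 at 30 h, so the 7 h and 30 h arrays all lay above the 0 h arrays. The log2 change at 30 h was 1.24 (SE 0.26, adjusted p = 0.000509 by limma). Hspa1a, a near-identical neighbour, may share its probes, so the value cannot be assigned to 1 of the pair with certainty. The other probe sets of Hspa1b did not pass the filter. Their means were 1.56 and 2.08 at 0 h and 1.55 and 2.41 at 30 h. At the other extreme, Hspa12b, a distant HSP70 relative known from endothelial cells, read 6.02, 5.12 and 6.00 at 0 h, 4.48, 4.79 and 4.41 at 3 h and 4.23, 3.71 and 4.29 at 30 h. Every 3 h and 30 h array lay below every 0 h array, with a log2 change of -1.64 at 30 h (SE 0.21, adjusted p = 4.09e-06 by limma). The fall was not steady: the 7 h arrays, at 5.58, 5.25 and 5.46, lay within the 0 h range (log2 change -0.29, adjusted p = 0.349 by limma).

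Of 9 HSP70 genes tested, 5 were lower at 30 h and 1 higher (all genes 33% and 36.6%), with a median of -0.28. Besides those above, Hspa14, the ribosome-associated HSP70, changed by -0.41, and by -0.24 without the third array at 0 h. Other probe sets of Hspa14 gave -1.10 (SE 0.055) and -0.63 (SE 0.088), and with its probe sets averaged the change was -0.72 (adjusted p = 3.46e-08 by limma). Hspa2, best known from the testis, fell by 0.28. Hspa12a and Hspa13 did not pass the test, with changes of 0.32 and 0.14. In the HSP110 family, whose members exchange nucleotide on HSP70, Hspa4 fell from 12.08 to 11.46, and it was lower at every time from 3 h on. Hsph1 fell from 12.25 to 11.82. Hspa4l was lower from 7 h, at 8.63 at 21 h against 9.29 at 0 h, but read 9.09 at 30 h (log2 change -0.19, adjusted p = 0.0742 by limma). Both genes named for binding HSPs were lower: Hspbp1, an HSP70 exchange factor, with a log2 change of -0.69, and Hspbap1, which binds the small HSP Hspb1, with -0.77.

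Small HSPs hold unfolded proteins without ATP, and most were dim here. Of 6 tested, 2 were higher and 1 lower at 30 h (all genes 36.6% and 33%). Hspb6 (HSP20) read 8.44, 8.29 and 8.49 at 0 h, 9.60, 9.33 and 9.26 at 21 h and 8.91, 8.96 and 9.04 at 30 h. It was highest at 21 h, and at 30 h it was 1.48-fold above 0 h (log2 change 0.57, SE 0.10, adjusted p = 0.000116 by limma). Hspb2 went from 3.37 to 3.86 and passed the test, and Hspb1 (HSP27), at 3.34 and 3.42, did not (adjusted p = 0.708 by limma). Hspb8 and Hspb9 also missed the threshold, with changes of 0.04 and 0.29. Hspb11, known as the cilia transport protein IFT25, fell by 0.28.

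The heat shock factor Hsf2, a transcription factor known from development and the testis, was also dim. It read 3.23, 4.27 and 3.43 at 0 h, 4.05, 4.39 and 4.53 at 3 h, 2.57, 2.25 and 2.82 at 14 h and 2.53, 2.82 and 2.42 at 30 h. The arrays from 7 h on all lay below those at 0 h, and all of them were under the filter, which Hsf2 passed through its 6 arrays at 0 h and 3 h. The log2 change at 30 h was -1.06 (SE 0.27, adjusted p = 0.00238 by limma).

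J-domain genes made up 20 of the 26 members that rose, and 41 of the 76 tested. Of all tested genes, 36.6% were higher at 30 h and 33% lower. Of 16 tested DNAJA and DNAJB genes, which resemble the bacterial DnaJ most closely, 10 were higher at 30 h and 2 lower, with a median of 0.36. Of 25 tested DNAJC genes, which share only the J domain, 10 were higher and 10 lower, with a median of -0.03, which was 0.18 with arrays scaled on hybridisation controls. With the probe sets of a gene averaged, 6 DNAJC genes were higher and 10 lower. Together, 12 of 41 J-domain genes were lower.

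Dnajb2 rose more than any other member. It encodes HSJ1, a J protein that passes ubiquitinated clients to the proteasome. Its arrays read 7.11, 6.99 and 7.09 at 0 h, 6.36, 6.42 and 6.48 at 3 h, and 7.33, 7.27 and 7.32 at 7 h. They then read 8.54, 8.24 and 8.18 at 14 h, 9.58, 9.47 and 10.01 at 21 h, and 10.39, 10.29 and 10.27 at 30 h. The 3 h arrays all lay below those at 0 h, and each later group lay above the one before. The log2 change was -0.65 at 3 h (adjusted p = 0.000588) and 3.25 at 30 h, a 9.53-fold rise (SE 0.11, adjusted p = 5.12e-13 by limma). Its promoter window is among the 4 member windows with AGATAA.

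Dnajb4 (HLJ1) rose in the first 3 h, stayed level to 7 h (means 8.80 and 8.77), and rose again after that. It read 8.14, 8.02 and 8.22 at 0 h, 8.77, 8.87 and 8.75 at 3 h, 9.59, 9.55 and 9.18 at 21 h and 10.02, 9.99 and 10.06 at 30 h, without overlap between these times. At 30 h the rise was 3.73-fold (log2 change 1.90, SE 0.094, adjusted p = 3e-11 by limma). Dnajb9 (ERdj4), a J protein of the ER lumen, read 8.87, 8.81 and 8.88 at 0 h, 9.33, 9.35 and 9.27 at 3 h, 9.50, 9.61 and 9.40 at 21 h and 10.34, 10.35 and 10.25 at 30 h. It moved up in the first 3 h, stayed between 9.20 and 9.40 until 14 h, and ended 2.75-fold above 0 h (log2 change 1.46, SE 0.062, adjusted p = 5.07e-12 by limma).

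On the probe sets used, smaller rises in this class were seen for Dnaja1, a farnesylated partner of cytosolic HSP70, which went from 11.08 to 11.68 (log2 change 0.61, adjusted p = 2.64e-09 by limma), and for Dnajb12, an ER membrane J protein, which went from 6.62 to 7.18. Other bright probe sets of Dnaja1 rose more, by 1.45 (SE 0.066) and 1.31 (SE 0.064), and the average of its probe sets rose by 1.12. Dnajb8, counted among the 10 higher, had means of 2.74 and 3.36, a difference of 0.62, and was above the filter on no array at 0 h and on 2 of 3 at 30 h. Dnajb6, which suppresses polyglutamine aggregation and whose heat shock element is printed above, rose by 0.35. Dnajb1 (HSP40), the classic heat-induced J protein, was lower at 3 h by a log2 change of -0.20 and higher at 30 h by 0.18. Dnaja3 and Dnaja2, another partner of cytosolic HSP70, were the 2 that fell, by 0.81 and 0.39 on the log2 scale.

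**Figure D3:**
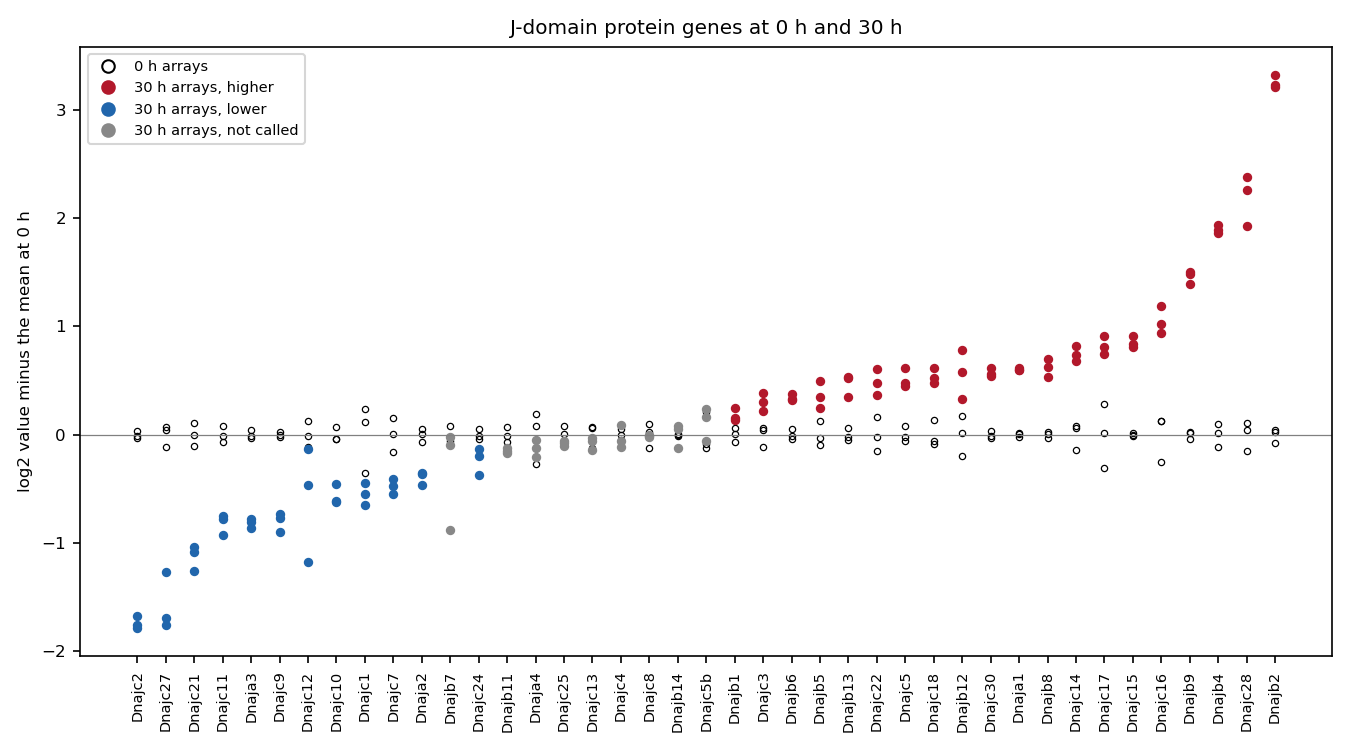
Log2 value minus the mean at 0 h for the 41 tested J-domain genes, with the 3 arrays at 0 h as open circles and the 3 at 30 h as filled circles coloured by the test's call. Genes are ordered by their change at 30 h, from Dnajc2 at -1.74 to Dnajb2 at 3.25.

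In the DNAJC class the largest fall was that of Dnajc2, the MPP11 subunit of the ribosome-associated complex that pairs with Hspa14. It read 11.56, 11.49 and 11.51 at 0 h, 11.29, 11.13 and 11.21 at 3 h, 10.71, 10.71 and 10.89 at 14 h and 9.74, 9.77 and 9.85 at 30 h. These groups did not overlap, and the fall was 3.34-fold (log2 change -1.74, SE 0.062, adjusted p = 5.62e-13 by limma). Dnajc21, whose yeast counterpart Jjj1 acts in ribosome assembly, read 7.88, 7.78 and 7.68 at 0 h and 6.52, 6.75 and 6.69 at 30 h (log2 change -1.13, SE 0.11, adjusted p = 1.58e-07 by limma).

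Other falls came later, in genes that were not called lower through 14 h. Dnajc27, a small GTPase with a J domain, read 7.02, 6.84 and 7.00 at 0 h, 6.81, 6.81 and 6.87 at 14 h and 5.68, 5.26 and 5.19 at 30 h, 2.98-fold below 0 h (log2 change -1.57, SE 0.12, adjusted p = 4.5e-09 by limma). Dnajc9, a J protein that chaperones histones, read 11.38, 11.33 and 11.34 at 0 h, 11.30, 11.37 and 11.27 at 21 h and 10.46, 10.58 and 10.62 at 30 h. Its change of -0.80 (adjusted p = 3.47e-09 by limma) thus came after 21 h. Dnajc12 passed the test at -0.59, with 30 h arrays spread from 2.76 to 3.81, and its change was -0.29 without the second of them.

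On the other side, Dnajc28 read 5.33, 5.39 and 5.14 at 0 h, 5.97, 5.83 and 5.77 at 7 h, 6.89, 6.62 and 6.68 at 14 h and 7.67, 7.21 and 7.54 at 30 h. These groups did not overlap, and the rise was 4.56-fold (log2 change 2.19, SE 0.11, adjusted p = 2.58e-11 by limma). Dnajc16, a J protein of the ER membrane, went from 7.54 to 8.03 at 3 h and 8.59 at 30 h (log2 change 1.05, SE 0.13, adjusted p = 2.13e-06 by limma). Dnajc17, a nuclear J protein with an RNA recognition motif, and Dnajc14, an ER membrane protein of receptor transport, rose by 0.82 and 0.75, though with its probe sets averaged Dnajc17 gave 0.10 (adjusted p = 0.249 by limma).

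Dnajc18 was higher by 0.54, but a second tested probe set gave -0.20, and with probe sets averaged its change was -0.13 (adjusted p = 0.307 by limma). Also higher were Dnajc5 (the cysteine string protein of vesicles) by 0.52, Dnajc22 by 0.48, Dnajb13 by 0.47 and Dnajb5 by 0.37. With probe sets averaged, Dnajc22 gave 0.28 (adjusted p = 0.0581) and Dnajb5 0.10 (adjusted p = 0.369 by limma). Dnajc1, an ER membrane J protein, was lower with a change of -0.55, Dnajc7, which also binds HSP90, with -0.48, and Dnajc24, which acts in diphthamide synthesis, with -0.24. The other 9, Dnaja4, Dnajb7, Dnajb11, Dnajb14, Dnajc4, Dnajc5b, Dnajc8, Dnajc13 and Dnajc25, did not pass the test at 30 h, with changes between -0.33 and 0.11.

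At 3 h Dnajb4 was higher by 0.67, Dnajc16 by 0.50, Dnajb9 by 0.47 and Hsp90b1 by 0.45. Dnajc10 (ERdj5), a J protein with disulfide reductase activity in the ER, was higher by 0.36, and Hspa5 by 0.21. Dnajc1 of the ER membrane was lower, with a change of -0.34. Other probe sets of Dnajc10 gave 0.14 and 0.10 at 3 h, the other set of Hsp90b1 0.19 (SE 0.18) and the other bright set of Hspa5 0.18 (SE 0.070). None of these passed the test. Another set did pass it for Dnajc16, at 0.45, and for Dnajb4, at 0.39. The larger falls at 3 h were -1.15 for Hspa12b, -0.65 for Dnajb2, -0.52 for Hspbap1 and -0.35 for Hspa2. Calls at 3 h and at 30 h were set side by side for the members only. The same count was not made over all tested genes, and both calls use the same 0 h arrays. Of the 9 members higher at 3 h, 3 were higher at 30 h, 4 were lower and 2 were not called, and of the 10 lower at 3 h, 2 were higher, 7 lower and 1 not called. The number lower at 3 h was 6 rather than 10 when the first array at 0 h or the third at 3 h was left out.

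Several genes had more than 1 probe set, and for some bright genes the one with the highest mean showed a smaller change than others. The used probe sets of Cct2, Hspa8 and Hspe1 had means of 13.06, 12.96 and 12.87 at 0 h, above the 99th percentile of an array, which was 12.2 at its lowest. In a fit over every single-gene probe set, Hspe1 changed by -0.40 on the used set and by -0.93 (SE 0.096) on another, and Hspa9 by -1.05 and -1.61 (SE 0.075). For Hsp90aa1 the used set gave -0.29, while 2 other bright ones gave -1.59 (SE 0.13) and -1.10 (SE 0.12). Cct3 gave -0.26 and, on a set at 9.69, -1.26 (SE 0.11), and Hsp90b1 gave -0.10 and -0.77 (SE 0.18).

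Direction was less often in question. Of 45 members with more than 1 tested probe set, 3 had sets called in opposite directions at 30 h: Dnajc17, Hspa4l and Hspa8. Dnajc17 gave 0.82 on the used set and -0.31 on one of nearly the same brightness. The 3 bright sets of Hspa8 gave -0.01, -0.01 and 0.15, and a dimmer one gave -1.19. Whether saturation, transcript variants or the place of a probe along the transcript sets these gaps was not tested.

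**Figure D4:**
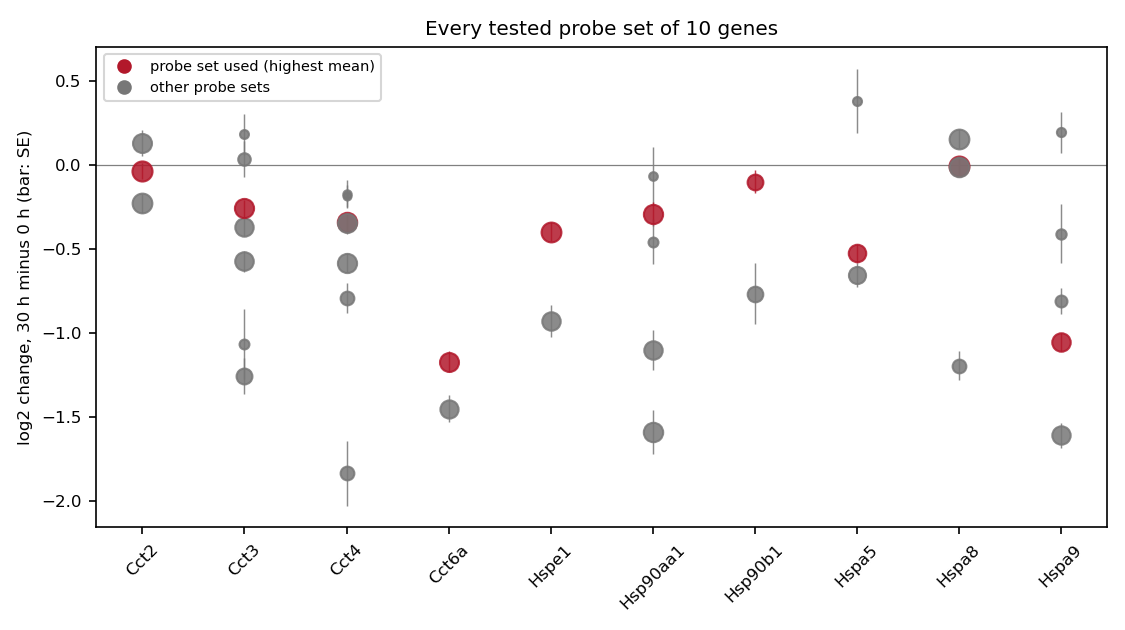
Log2 change from 0 h to 30 h with its SE for each tested probe set of 10 genes, with the set used in red and the others in grey. Larger points are brighter at 0 h. For Hspe1, Hsp90aa1, Hsp90b1 and Hspa9 another bright set lies below the one used.

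The scale of the arrays also bears on the falls. When arrays were set to the same level on 18 hybridisation control probe sets, the median change of all genes at 30 h went from 0.09 to 0.30, a shift of 0.20. The shift is the same for every gene, so rises could only grow and falls could only shrink or turn. Over all tested genes, 4195 were lower before and 2585 on that scale, and 4651 were higher before and 4999 on it. Of the 26 members higher at 30 h, 24 were also higher on that scale. Of the 32 lower, 14 were lower and 18 were not called. The 14 were Cct5, Cct6a, Hspd1, Hspa9, Hspa12b, Hspbp1, Hspbap1, Hsf2, Dnaja3, Dnajc2, Dnajc9, Dnajc11, Dnajc21 and Dnajc27. On the control scale the CCT genes were 2 higher and 2 lower, with a median of -0.09, and the medians of HSP90 and DNAJC turned from below to above 0, at 0.01 and 0.18. At 3 h only Dnajb4 and 2 dim genes, Hspa1b and Hsf2, were called higher on it, and only Hspa12b lower.

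The other genes of the chaperone network came from lists assembled by function. Among cochaperones of HSP70 and HSP90, 12 of 20 tested were lower at 30 h and 7 higher (all genes 33% and 36.6%), with a median of -0.34. Fkbp5, an immunophilin cochaperone of HSP90 in steroid receptor complexes, fell from 7.54 to 4.31 (log2 change -3.23, SE 0.15, adjusted p = 1.2e-11 by limma). Its relative Fkbp4 fell by 1.64, the HSP70 exchange factor Bag2 by 1.90 and the HSP90-associated Nudc by 1.31 on the log2 scale. Among prefoldin, tubulin and CCT cofactors, 6 of 14 were higher and 5 lower (all genes 36.6% and 33%), with a median of 0.14. Pfdn2 fell by 1.29, Pfdn6 by 0.89 and Pfdn4 by 0.86, and the CCT regulator Txndc9 rose by 0.67.

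Of 18 ER folding and unfolded protein response genes, 10 were lower and 4 higher (all genes 33% and 36.6%), with a median of -0.39. At 3 h, 4 were higher and 2 lower (all genes 11.2% and 14.7%), with a median of -0.04. The sensor Atf6 went by 30 h from 7.51 to 10.03 and the stress-induced factor Ddit3 (CHOP) from 8.24 to 10.75, a log2 change of 2.52 for each, while Pdia4 fell by 1.40 and the ER HSP110 Hyou1 by 1.25. Of 13 mitochondrial partners and proteases, 8 were lower and 3 higher at 30 h (all genes 33% and 36.6%), with a median of -0.25. The matrix protease subunit Clpp fell by 1.10, the mitochondrial HSP90 Trap1 by 0.81 and the disaggregase Clpb by 0.70, and the unfoldase Clpx rose by 0.59. All these named genes had the same calls on the control scale, where the 4 lists gave 7, 3, 6 and 3 genes lower. Of the other heat shock factor genes, 2 were tested and neither passed at 30 h by limma, with 0 at an unadjusted p under 0.05.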

How the data were processed

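The authors deposited 1 table of log2 values for 45101 Affymetrix probe sets on 18 arrays. How they were summarised, background-corrected and normalized is, for the sources used here, not given. Probe sets were named from GEO's platform annotation: 34958 had 1 gene, 932 had several and were left out, and the rest were unnamed. Genes not analysed here include those read only by shared probe sets. Each gene was read from its probe set with the highest mean. Genes above the 40th percentile of all probe sets in 3 or more arrays were tested. All 18 arrays were fitted in limma 3.58.1 (R 4.3.3) with 1 mean per time and 12 residual degrees of freedom, with no covariate. P-values were adjusted by Benjamini-Hochberg over 12720 genes, with a threshold of 0.05, and the script was tested on simulated data. Levels of different probe sets were not compared as amounts. The number of arrays limits the precision.

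The members and lists were chosen with earlier results of these data known. Genes named with values are all ring and chaperonin genes, HSP90, HSP70, HSP110, HSP-binding and small HSP genes and Hsf2, up to 6 J-domain genes of each class and direction by the size of their called change at 30 h with arrays apart from those at 0 h, by the same rule the 4 largest in each direction at 3 h, and up to 4 per related list. Other J-domain genes were named after their values were seen. Replicate numbers were taken to pair arrays where all 3 same-numbered arrays of 2 times deviated together (r over 0.1), which held for 1 of 15 pairs of times, 14 h and 30 h (r from 0.12 to 0.18), and not for any comparison with 0 h. Alternatives tried were quantile normalization, a common median, scaling on hybridisation controls, other filters, other probe set rules, a trended robust variance, a replicate block, only the arrays compared, dropping 1 array at a time and a minimum of 2-fold.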

Additional observations from a re-analysis of the deposited data

How the results depend on the processing

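With arrays scaled on hybridisation controls, 3 members were higher and 1 lower at 3 h, 3 and 3 at 7 h, 14 and 10 at 21 h, and 7 and 16 for 30 h against 14 h, and 3 were lower at 14 h and 14 at 30 h. With a 2-fold minimum, 0 were higher and 1 lower at 3 h, 1 and 0 at 7 h, 3 and 1 at 14 h, 4 and 4 at 21 h, 6 and 8 at 30 h, and 2 and 3 for 30 h against 14 h. Other alternatives kept every count over all members within 1.5 times, apart from leaving out 1 array. Counts by family at 30 h moved more in some fits: with probe sets averaged, 6 DNAJC (10 before) and 0 of 7 tested HSP70 genes (1 of 9 before) were higher and 2 HSP90 genes (1 before) lower, above the 60th percentile 1 CCT gene (3 before) and 1 small HSP (2 before) were higher, and 2 HSP70 genes were higher with quantile normalization, the replicate block or only the arrays compared. Leaving out 1 array gave 6 to 10 higher and 6 to 11 lower at 3 h, 9 to 15 and 6 to 11 at 7 h, 17 to 20 and 12 to 16 at 14 h, 21 to 24 and 24 to 27 at 21 h, 24 to 27 and 31 to 33 at 30 h, 14 to 18 and 27 to 30 for 30 h against 14 h, and 60 to 65 over all times. The 6 lower at 3 h came without replicate 1 at 0 h or replicate 3 at 3 h.

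Single calls at 30 h ended when 1 array was left out for Cct8l1 (0.43, adjusted p = 0.0513) and Dnajb1 (0.15, adjusted p = 0.0545) without replicate 2 at 0 h, Dnajb1 without replicate 3 at 30 h (0.15, adjusted p = 0.0551), Hspb11 without replicate 3 at 0 h (-0.20, adjusted p = 0.0555) and Dnajc24 without replicate 2 at 30 h (-0.17, adjusted p = 0.0659), all by limma. With probe sets of a gene averaged, Dnajc18 reversed to -0.13 (adjusted p = 0.307) and Hspa13 to -0.32 (adjusted p = 0.0125). The calls of Dnajb5 (0.10, adjusted p = 0.369), Dnajc17 (0.10, adjusted p = 0.249), Dnajc22 (0.28, adjusted p = 0.0581) and Dnajc3 (0.05, adjusted p = 0.484) ended there by limma, and Hsp90b1 (-0.43) and Hspa8 (-0.27) were called lower. Read from another probe set, the direction at 30 h reversed for Dnajc3 (-0.13 on 2 sets), Dnajc17 (-0.31 and -0.20), Cct3 (0.033 and 0.18), Hspa4l (0.16), Hspa13 (-0.61 and -0.75), Dnajc18 (-0.20), Dnajc11 (0.018), Hspa5 (0.38), Hspa9 (0.19) and Hspa8 (0.15). The cause was not tested. Of 97 other probe sets, 65 gave the same call as the one used.

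The replicate block left 75 of 76 calls at 30 h as they were and added 1. It gave 17 members higher and 29 lower for 30 h against 14 h, and moved no count over all members by more than 1.5 times. Of 45 correlations between arrays sharing a replicate number, 7 passed 0.1, over a range from -0.17 to 0.19.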
